A study of Mus musculus with 12 samples.

Results

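The genes described here encode interleukin-6 (IL-6), its receptor, the Janus kinases (JAKs) bound to that receptor and the SOCS proteins that restrain them. They were taken by symbol from the deposited tables: Il6, Il6ra, Il6st, Jak1, Jak2, Tyk2, Socs1, Socs2, Socs3 and Cish. All 10 were found among the 24934 genes of the count table and among the 24728 genes of the FPKM table, and all 10 passed the filter on low counts that left 13249 genes for testing.

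The cells were BV2, an immortalised mouse microglial line, and RNA was sequenced from 12 libraries. The Acacetin group had 4 libraries, and the series text describes 10 µM acacetin, a plant flavone, given after oxygen-glucose deprivation and re-oxygenation, while the sample labels of that group name acacetin only. The OGD group had 4 libraries of cells under oxygen-glucose deprivation and re-oxygenation, a culture model of ischaemia and reperfusion, and the Control group had 4 libraries. Nothing in the labels tells whether replicate libraries stem from different culture dishes, so the p-values below measure only the spread between these samples.

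IL-6 binds the receptor chain encoded by Il6ra, and the complex then engages gp130, encoded by Il6st, which many related cytokines share. Gp130 carries no kinase of its own and depends on JAK1, JAK2 and TYK2, which phosphorylate it and the transcription factor STAT3. STAT proteins in turn induce SOCS genes, whose products bind receptors or JAKs and shut the signal down, and microglia use this route in their response to injury.

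Short promoter stretches are shown for the 4 genes of this set in which 1 of 3 textbook motifs was found, because these motifs belong to the factors that the set is known to answer to. Each runs from 250 bases before to 30 bases after the annotated start, on the strand of the gene, from RefSeq on build GRCm38.p6, and capitals mark the matches. The positions are chr5:30012864-30013143 (plus strand) for Il6, chr16:10785507-10785786 (minus strand) for Socs1, chr11:117969337-117969616 (minus strand) for Socs3 and chr9:107296409-107296688 (plus strand) for Cish.
Il6: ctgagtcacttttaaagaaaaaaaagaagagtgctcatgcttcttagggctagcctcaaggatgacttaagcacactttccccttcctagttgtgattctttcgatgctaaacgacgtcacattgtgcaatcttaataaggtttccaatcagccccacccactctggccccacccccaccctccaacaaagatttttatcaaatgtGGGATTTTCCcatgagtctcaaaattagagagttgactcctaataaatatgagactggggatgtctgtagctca
Socs1: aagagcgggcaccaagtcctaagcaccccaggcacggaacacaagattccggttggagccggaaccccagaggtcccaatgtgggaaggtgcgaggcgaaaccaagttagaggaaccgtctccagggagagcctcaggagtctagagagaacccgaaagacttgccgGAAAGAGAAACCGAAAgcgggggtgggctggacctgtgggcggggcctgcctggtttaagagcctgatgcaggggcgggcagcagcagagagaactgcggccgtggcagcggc
Socs3: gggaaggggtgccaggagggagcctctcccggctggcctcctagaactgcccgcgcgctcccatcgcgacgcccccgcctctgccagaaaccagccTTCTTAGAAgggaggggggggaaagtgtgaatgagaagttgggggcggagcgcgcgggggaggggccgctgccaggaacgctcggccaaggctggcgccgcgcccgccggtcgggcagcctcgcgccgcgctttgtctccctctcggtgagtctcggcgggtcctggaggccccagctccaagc
Cish: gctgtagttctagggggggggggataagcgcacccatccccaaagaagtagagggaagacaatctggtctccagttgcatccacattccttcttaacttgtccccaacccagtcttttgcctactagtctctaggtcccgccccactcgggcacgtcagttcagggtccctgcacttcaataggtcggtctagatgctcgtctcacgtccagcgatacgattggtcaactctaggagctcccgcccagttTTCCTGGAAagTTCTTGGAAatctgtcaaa

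The motifs were searched on both strands. The STAT motif TTCNNNGAA was present in 7.83% of 32851 promoter windows of the same 280 bases. Cish had 2 matches, TTCCTGGAA from base 1 and TTCTTGGAA from base 12 after the start, and Socs3 had 1, TTCTTAGAA, from base -154. The kB motif, GGGA then any base then TTTCC, known for NF-kB, was in 0.39% of windows, and Il6 had it from base -44. The interferon-type motif, GAAA then any 2 bases then GAAA, was in 3.28% of windows, and Socs1 had 2 matches from bases -83 and -77 that share letters. The windows of Il6ra, Il6st, Jak1, Jak2 and Tyk2 held none of these letters. Entries were matched by symbol for 9 of the 10 genes, all but Socs2. A match describes letters only.

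Depth ran from 16427886 to 32693066 reads per library. Levels are given as CPM, reads of a gene relative to the TMM-adjusted size of its library, and "called" means an adjusted p under 0.05 by edgeR's quasi-likelihood test with Benjamini-Hochberg adjustment over all 13249 genes. The gene for 18S ribosomal RNA took 13.1% of reads in OGD 2 and 21.3% in OGD 3, against 0.137% to 1.86% in the other 10 libraries. Libraries also differed in how level depended on gene length. The slope of log2 level, centred per gene, on log2 gene length was 0.295 in Acacetin 3 and -0.212 in Acacetin 1, with the other 10 libraries from -0.148 to 0.174. Microglia and macrophage markers summed to 2366 to 3415 CPM in Acacetin, 2855 to 4088 CPM in OGD and 2940 to 3717 CPM in Control. The defining microglial gene P2ry12 was at 0.234 CPM or less in every library, whereas Cd68 stood at 645 to 1051 CPM. Marker lists of astrocytes, neurons, oligodendrocytes, fibroblasts, T cells and endothelial cells each summed to 6.26 CPM or less in every library.

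In the comparison of OGD with Control, Il6ra and Socs1 rose while Cish and Tyk2 fell, each by about 1 or more on the log2 scale. Levels are per library, so fewer cells of a type and less RNA per cell cannot be told apart. These were 4 of the 10 genes, 2 called higher and 2 called lower, where 28.8% of all tested genes were called, 16.2% higher and 12.6% lower. The 2148 higher and 1665 lower calls over all genes became 1617 higher and 1800 lower with total library size in place of TMM, and 911 higher and 1920 lower on log2(FPKM + 1). The groups did not overlap for 5 of the 10 genes, against 36% of all tested genes. The median log2 fold change of the 10 genes was -0.02 and that of all tested genes was 0.03. The share of genes called in the set was therefore near the background, and the description below is of the single genes.

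**Figure D1:**
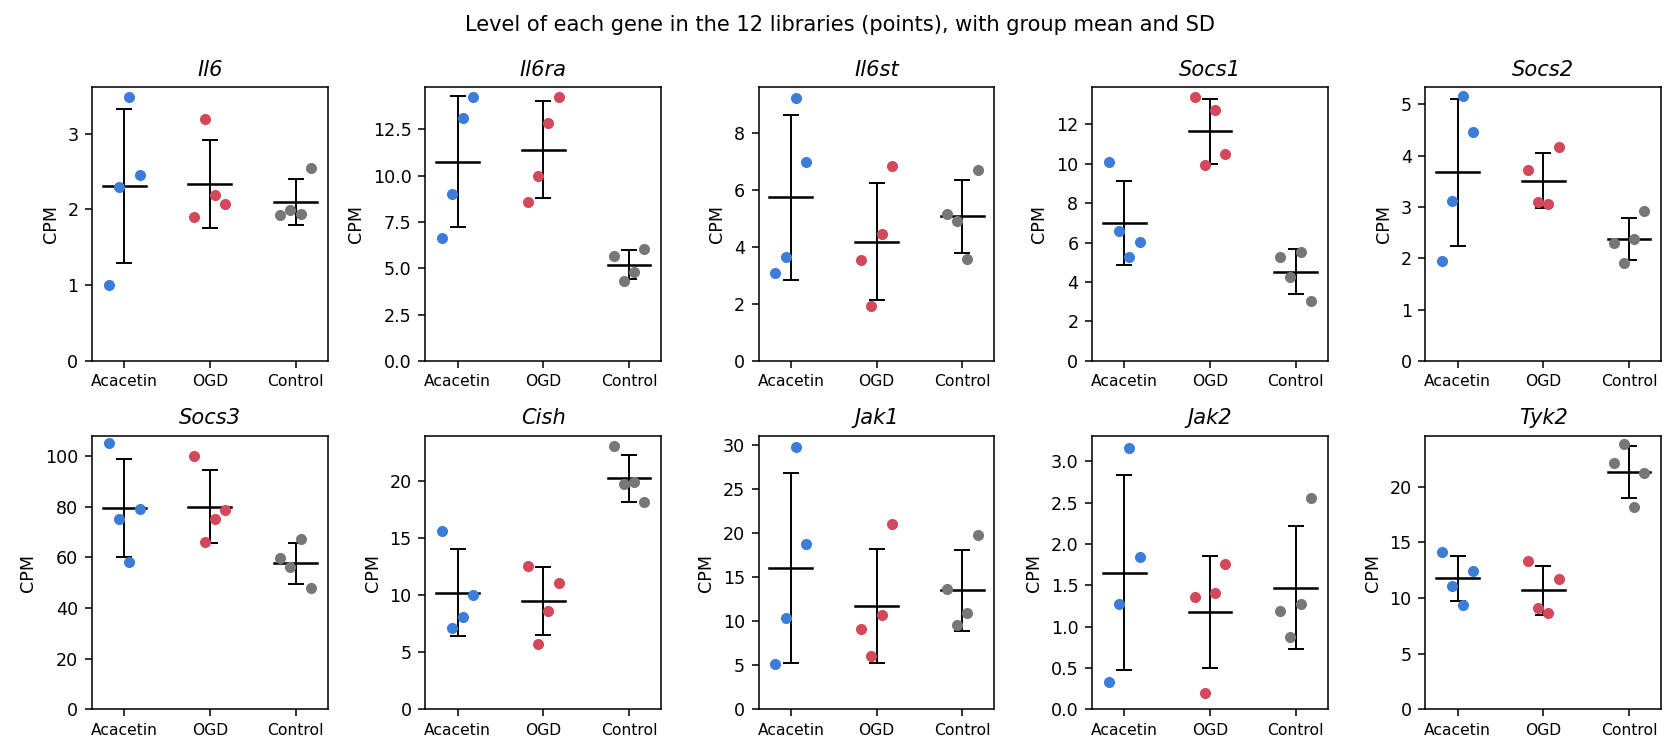
Level (CPM) of the 10 genes in the 12 libraries, as points from replicate 1 on the left to replicate 4 on the right in each group, with the group mean as a line and the SD as bars. Il6ra stood higher, and Cish and Tyk2 lower, in the Acacetin and OGD libraries than in all Control libraries, while Socs1 averaged highest in OGD.

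Il6 (ENSMUSG00000025746.12, chromosome 5), the ligand gene, was expressed at a low level in all groups. Its level was 0.997, 2.30, 3.49 and 2.46 CPM in Acacetin, 1.89, 3.20, 2.19 and 2.08 CPM in OGD, and 1.92, 1.99, 1.94 and 2.55 CPM in Control, from 21 to 127 reads. The 3 groups overlapped, and the widest spread lay within Acacetin. The log2 fold change was 0.15 ± 0.33 (SE) in OGD against Control, with a 95% interval of -0.56 to 0.86 and an adjusted p of 0.784. That interval held both falls and rises, so these libraries showed neither. The sign changed with FPKM, without OGD 2, and without OGD 2 and 3.

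Il6ra (ENSMUSG00000027947.12, chromosome 3) encodes the chain that binds IL-6 and sets which cells respond to it directly. It had 6.65, 9.02, 13.1 and 14.2 CPM in Acacetin, 8.56, 9.99, 12.8 and 14.3 CPM in OGD, and 5.65, 4.31, 4.80 and 6.04 CPM in Control. Every Acacetin and every OGD library was above every Control library. Il6ra rose in OGD against Control with a log2 fold change of 1.13 ± 0.25 (adjusted p = 0.00446). On log2(FPKM + 1) with limma the change was 0.41 (adjusted p = 0.132), and with a pseudocount of 0.1 it was 0.84 (adjusted p = 0.0983), so the call ended on that scale. With the gene-length trend removed per library it was 1.09 ± 0.17 (adjusted p = 0.00037).

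Il6st (ENSMUSG00000021756.13, chromosome 13), the gene of the shared chain gp130, did not separate the groups. It had 3.09, 3.64, 9.26 and 7.01 CPM in Acacetin, 3.54, 1.95, 4.45 and 6.85 CPM in OGD, and 5.16, 4.94, 3.57 and 6.70 CPM in Control. All 3 groups overlapped, with a log2 fold change of -0.27 ± 0.40 in OGD against Control (adjusted p = 0.656). The values of both receptor genes can be set against each other within a library, which needs no scaling between libraries. Such a ratio can still carry differences between libraries that act unequally on genes, such as the length slope. Il6ra had 1.41 to 2.48 reads per Il6st read in Acacetin (mean 2.02 ± 0.447, SD, n = 4), 2.08 to 5.13 in OGD (3.13 ± 1.37) and 0.874 to 1.34 in Control (1.05 ± 0.217). The OGD value of 5.13 came from OGD 2, with 39 Il6st reads, and the other OGD libraries had 2.08 to 2.88. Acacetin and OGD overlapped each other and did not overlap Control. This pair and the other 3 pairs of genes set against each other were chosen after their values were seen, so these ratios are given without a test.

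**Figure D2:**
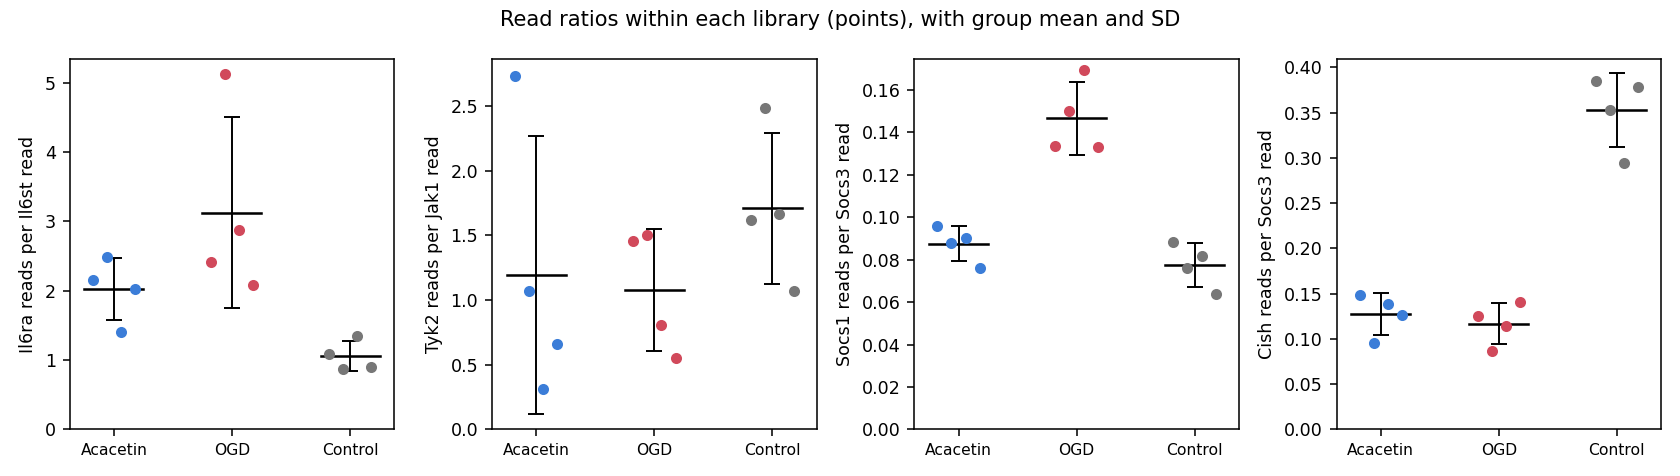
Reads of one gene per read of another in the same library (vertical axis, a ratio with no unit) for 4 pairs, as 1 point per library with group mean and SD. The Socs1 to Socs3 ratio was 0.133 to 0.169 in OGD, above both the Acacetin and the Control libraries, and the Cish to Socs3 ratio was 0.295 to 0.385 in Control, above both other groups. The Tyk2 to Jak1 ratio overlapped between all groups.

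Among the kinase genes, only Tyk2 was called in OGD against Control. Tyk2 (ENSMUSG00000032175.12, chromosome 9), whose product also serves the receptors of type I interferons, interleukin-10 and interleukin-12, had 14.2, 11.1, 9.34 and 12.5 CPM in Acacetin, 13.3, 9.14, 8.67 and 11.7 CPM in OGD, and 22.1, 23.8, 18.2 and 21.3 CPM in Control. The lowest Control library lay above the highest library of both other groups. Tyk2 fell in OGD by 0.99 ± 0.18 on the log2 scale (adjusted p = 0.00128), and it was called in all 19 alternatives run for this comparison, from -1.11 to -0.71.

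Jak1 (ENSMUSG00000028530.15, chromosome 4), the kinase gene on which gp130 signalling chiefly depends, had 5.18, 10.4, 29.8 and 18.8 CPM in Acacetin, 9.13, 6.09, 10.8 and 21.1 CPM in OGD, and 13.7, 9.58, 10.9 and 19.9 CPM in Control. Replicates of 1 group differed more than the groups did, with coefficients of variation of 67.1% in Acacetin, 55.3% in OGD and 33.8% in Control. Jak2 (ENSMUSG00000024789.14, chromosome 19), the kinase gene best known from erythropoietin and growth hormone signalling, had 0.332, 1.28, 3.16 and 1.84 CPM in Acacetin, 1.36, 0.200, 1.41 and 1.75 CPM in OGD, and 1.19, 0.871, 1.27 and 2.55 CPM in Control. It rested on 4 to 115 reads per library. The log2 fold changes in OGD against Control were -0.20 ± 0.46 for Jak1 (95% interval -1.19 to 0.80, adjusted p = 0.798) and -0.31 ± 0.61 for Jak2 (95% interval -1.62 to 1.00, adjusted p = 0.752). Both intervals ran from a fall of more than 1 to a rise of at least 0.80 on the log2 scale. Tyk2 had 0.313 to 2.73 reads per Jak1 read in Acacetin, 0.556 to 1.50 in OGD and 1.07 to 2.49 in Control, so this ratio overlapped in all 3 comparisons. Within Acacetin it was highest in Acacetin 1 and lowest in Acacetin 3, the libraries with the lowest and the highest length slope.

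Some of these spreads ran with the gene-length slope of the libraries in Acacetin. Of the 10 genes, 5 (Il6, Il6st, Jak1, Jak2 and Socs2) had their lowest Acacetin value in Acacetin 1, the library with the lowest slope, and their highest value of all 12 libraries in Acacetin 3, the library with the highest. Their relative lengths ran from 2844 nt for Il6 to 12900 nt for Il6st. Il6ra (10137 nt), Tyk2 (7972 nt) and Cish (7449 nt) did not have this order. Il6ra was nevertheless lowest of Acacetin in Acacetin 1 (6.65 CPM). In OGD and Control it was highest in OGD 4 and Control 4, the libraries with the highest slope of those groups. Tyk2, Socs1 (3414 nt) and Socs3 (3374 nt) had the reverse order within Acacetin. They had 14.2, 10.1 and 105 CPM in Acacetin 1 and 9.34, 5.25 and 58.2 CPM in Acacetin 3. The share of all tested genes with either order was not counted. With the length trend removed, the SE of the log2 fold change in OGD against Control was 0.25 for Il6st (0.40 with the trend left in), 0.19 for Socs2 (0.29) and 0.37 for Jak1 (0.46). For Tyk2 it was 0.21 (0.18), and the Tyk2 change was -1.04. The SEs of Il6 and Jak2 with the trend removed are not given here. The part of the length slope in the group differences was not tested beyond these values.

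**Figure D3:**
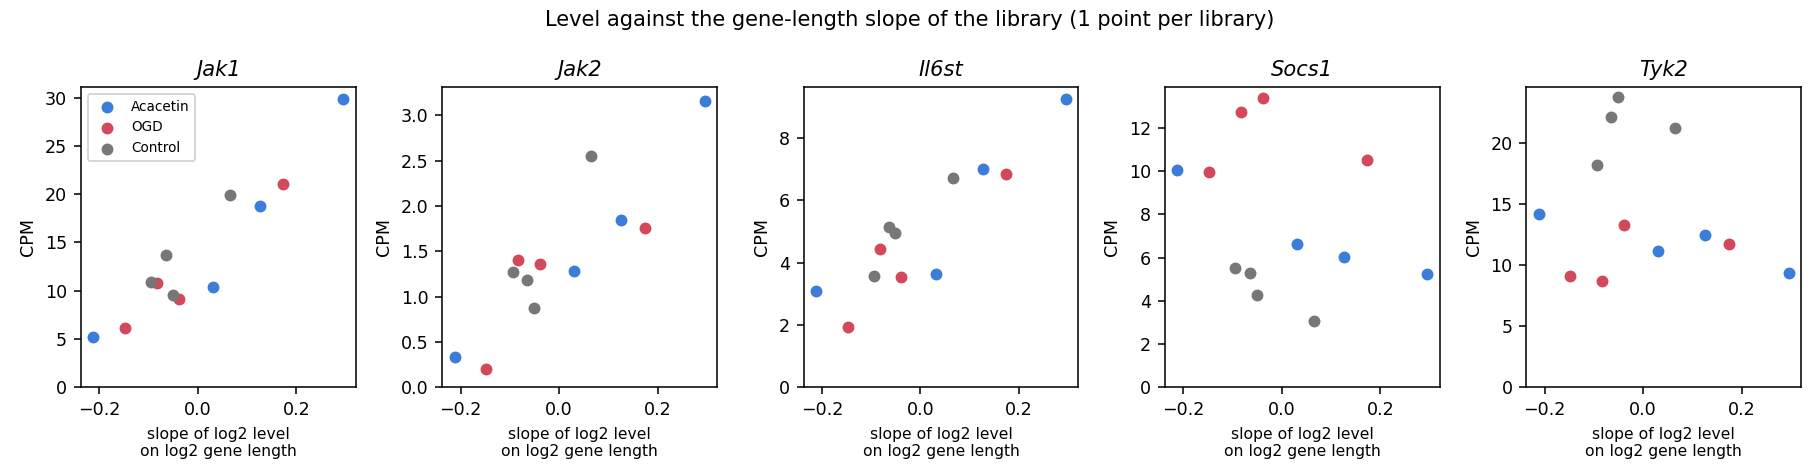
Level (CPM, vertical axis) of 5 genes against the slope of log2 level on log2 gene length in each library (horizontal axis, no unit), with 1 point per library coloured by group. Jak1, Jak2 and Il6st stood highest in the library with the slope of 0.295, Acacetin 3, while Socs1 stood highest in 3 OGD libraries and Tyk2 in the 4 Control libraries.

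Of the inhibitor genes, Socs1 rose and Cish fell in OGD against Control. Socs1 (ENSMUSG00000038037.6, chromosome 16) encodes a direct inhibitor of JAK catalytic activity that is strongly induced by interferons. It had 10.1, 6.61, 5.25 and 6.01 CPM in Acacetin, 13.4, 9.94, 12.7 and 10.5 CPM in OGD, and 5.28, 4.27, 5.51 and 3.05 CPM in Control. Every OGD library was above every Control library, and the Acacetin libraries overlapped both. The log2 fold change in OGD against Control was 1.36 ± 0.25 (adjusted p = 0.00121), and Socs1 was called in all 19 alternatives, from 0.82 to 1.47.

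Socs3 (ENSMUSG00000053113.4, chromosome 11) encodes the inhibitor that docks on gp130 and is itself a STAT3 target, and it was the gene of the set with the highest level. It had 105, 75.0, 58.2 and 79.0 CPM in Acacetin, 100.04, 66.2, 75.1 and 78.8 CPM in OGD, and 59.8, 56.0, 67.3 and 47.8 CPM in Control. OGD 2, at 66.2 CPM, and Acacetin 3, at 58.2 CPM, lay below the highest Control library, so both groups overlapped Control. The log2 fold change in OGD against Control was 0.47 ± 0.18 with an adjusted p of 0.066, so Socs3 was not called. It was called in 3 of 19 alternatives, with the replicate number as a block (adjusted p = 0.0395), with the length trend removed (0.0492) and with only the 8 libraries compared (0.0176).

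Socs1 was also set against Socs3 within each library. Socs1 had 0.0958, 0.0881, 0.0902 and 0.0760 reads per Socs3 read in Acacetin, 0.134, 0.150, 0.169 and 0.133 in OGD, and 0.0883, 0.0763, 0.0820 and 0.0638 in Control. Every OGD value was thus above every Acacetin value and every Control value, and Acacetin and Control overlapped.

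Cish (ENSMUSG00000032578.8, chromosome 9), a classic target of STAT5, had 15.6, 7.13, 8.05 and 9.99 CPM in Acacetin, 12.5, 5.75, 8.59 and 11.1 CPM in OGD, and 23.0, 19.7, 19.8 and 18.1 CPM in Control. All Control libraries were above all libraries of both other groups. Cish fell in OGD by 1.08 ± 0.26 on the log2 scale (adjusted p = 0.0074). Without OGD 2 and 3, the libraries with much 18S RNA, the change was -0.77 with an adjusted p of 0.0896. The count of called genes in the set was then 3 in place of 4. Fewer genes of all those tested were also called in that fit, and the set count was not compared with its share. Cish had 0.0950 to 0.149 reads per Socs3 read in Acacetin, 0.0868 to 0.141 in OGD, and 0.295 to 0.385 in Control.

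Socs2 (ENSMUSG00000020027.19, chromosome 10), known for its restraint of growth hormone signalling, had 1.95, 3.11, 5.17 and 4.46 CPM in Acacetin, 3.73, 3.10, 3.05 and 4.16 CPM in OGD, and 2.29, 1.91, 2.38 and 2.92 CPM in Control. The OGD libraries did not overlap the Control libraries, yet the change of 0.56 ± 0.29 had an adjusted p of 0.17. With the length trend removed it was 0.54 ± 0.19 (adjusted p = 0.0394), the only alternative of 19 in which Socs2 was called.

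**Figure D4:**
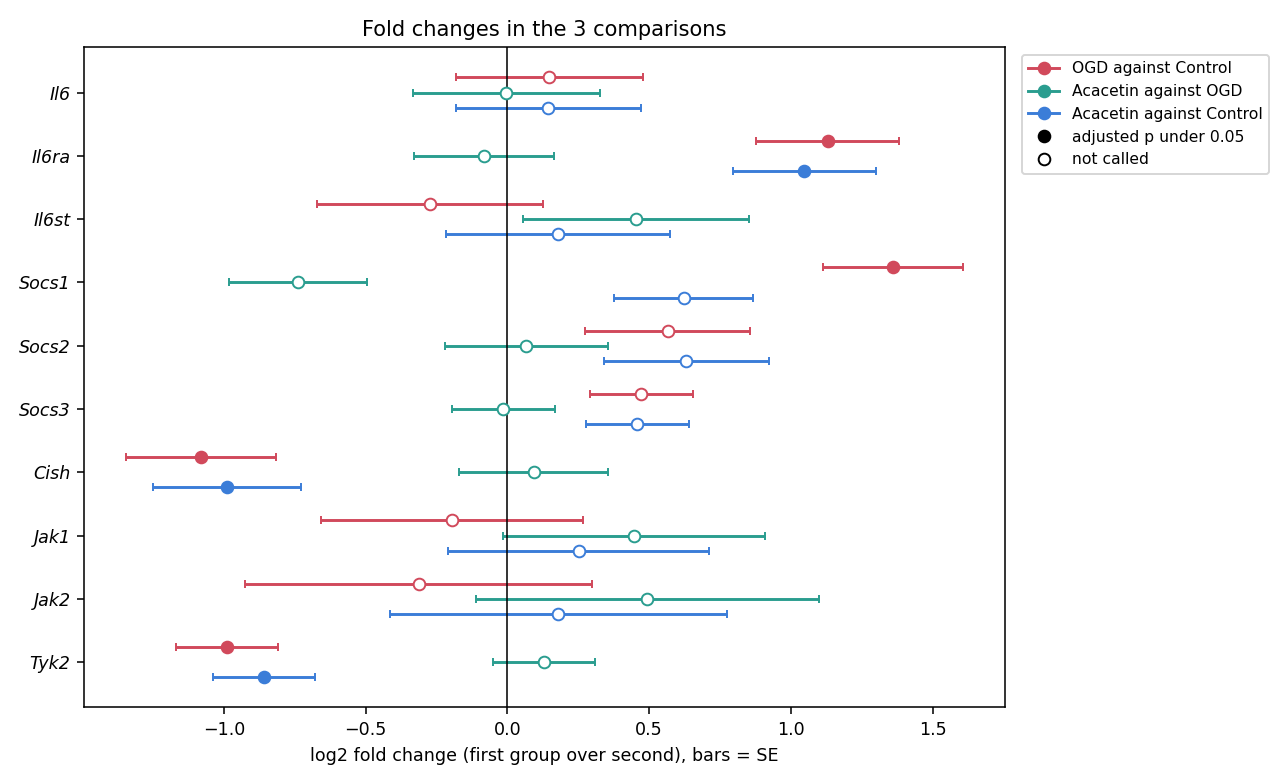
Log2 fold change (horizontal axis) with SE bars of the 10 genes in 3 comparisons, with filled points for an adjusted p under 0.05. In OGD against Control the filled points are Il6ra, Socs1, Cish and Tyk2, in Acacetin against Control they are Il6ra, Cish and Tyk2, and Acacetin against OGD has none.

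In Acacetin against OGD, none of the 10 genes was called. The background was the same: 0 of 13249 genes were called by edgeR (0%), 685 genes had an unadjusted p under 0.05, DESeq2 called 37, and limma on log2(FPKM + 1) called 0. None of the 37 was among the 10 genes. No gene of the set separated the groups completely, against 2.35% of all tested genes, and the median log2 fold change was 0.08 for the set and -0.02 for all tested genes.

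Socs1 was the only gene of the set with an unadjusted p under 0.05 in Acacetin against OGD. Its log2 fold change was -0.74 ± 0.24 with a 95% interval of -1.26 to -0.22, an unadjusted p of 0.00854 and an adjusted p of 0.81. The groups overlapped only through Acacetin 1, at 10.1 CPM, and OGD 2, at 9.94 CPM. Over the 20 alternatives the change was -0.96 to -0.35 and the adjusted p was 0.175 or more. Acacetin 1 and OGD 2 had the lowest length slopes of their groups, and the part of this in the Socs1 values was not tested.

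For the other genes the intervals in Acacetin against OGD included 0. Those of Il6ra (-0.61 to 0.45), Socs3 (-0.40 to 0.37), Cish (-0.47 to 0.66) and Tyk2 (-0.26 to 0.51) did not include a change of 1 on the log2 scale in either direction. Those of Il6st (-0.40 to 1.31), Jak1 (-0.55 to 1.44) and Jak2 (-0.81 to 1.79) did include a rise of 1. Il6 had an interval of -0.71 to 0.70 and Socs2 of -0.55 to 0.68. An adjusted p above the threshold does not show equal levels.

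In Acacetin against Control, Il6ra rose and Cish and Tyk2 fell. These 3 of 10 genes, 1 higher and 2 lower, stood against 26.9% of all tested genes called, 14% higher and 12.9% lower. The 1850 higher and 1709 lower calls over all genes became 2161 higher and 1246 lower with total library size. The same 3 genes were those whose groups did not overlap, against 25.7% of all tested genes. The median log2 fold change was 0.22 for the set and 0.08 for all tested genes. Acacetin against Control shares its Control libraries with OGD against Control, so the values of both comparisons are not independent.

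The log2 fold changes in Acacetin against Control were 1.05 ± 0.25 for Il6ra (adjusted p = 0.00805), -0.99 ± 0.26 for Cish (adjusted p = 0.0136) and -0.86 ± 0.18 for Tyk2 (adjusted p = 0.00371). In OGD against Control the values were 1.13, -1.08 and -0.99 for the same genes. On log2(FPKM + 0.1) with limma, none of the 3 genes was called in Acacetin against Control, with 1.00 for Il6ra (adjusted p = 0.0555), -0.86 for Cish (0.0744) and -0.70 for Tyk2 (0.0970). On log2(FPKM + 1), Cish alone was called, at -0.59 (adjusted p = 0.0492). With total library size in place of TMM, Cish was not called (-0.87, adjusted p = 0.0524), whereas Socs1 (0.74, adjusted p = 0.0338) and Socs3 (0.58, adjusted p = 0.0416) were. Socs1, which was called in OGD, had 0.62 ± 0.24 in Acacetin against Control (adjusted p = 0.0735) and was called in 5 of 19 alternatives there, one of them without Acacetin 3. Without Acacetin 3 the set had 5 called genes, with Socs1 and Socs3 added. Without Acacetin 1 it had 4, with Socs2 added, in the fit that also called the most genes overall of those with a library left out. The set counts of these fits were not compared with the share of all tested genes in the same fits.

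Levels of different genes were compared per length, on the FPKM scale. Socs3 stood first in every group, at 25.3 ± 2.70 FPKM in Acacetin, 22.2 ± 8.42 FPKM in OGD and 16.9 ± 1.80 FPKM in Control (SD, n = 4 each), and its range overlapped that of no other gene of the set. Second place went to Jak1 at 2.28 ± 1.78 FPKM in Acacetin, to Socs1 at 3.13 ± 0.897 FPKM in OGD, and to Cish at 2.67 ± 0.162 FPKM in Control. Jak2 at 0.198 to 0.340 FPKM and Socs2 at 0.213 to 0.383 FPKM, as group means, took the last 2 places in Acacetin, OGD and Control. Below Socs3, the ranges of neighbours in the order overlapped in every group, except for Socs1 (2.01 to 2.57 FPKM) above Tyk2 (1.47 to 1.87 FPKM) in Acacetin. Il6ra stood above Il6 in Acacetin (1.22 and 0.950 FPKM) and in OGD (1.05 and 0.740 FPKM), and below it in Control (0.518 and 0.743 FPKM), with overlapping ranges each time.

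Around the set, 7 lists of pathway genes with 101 symbols were examined, of which 81 genes passed the filter. For every list below, the share over all tested genes in OGD against Control was 16.2% higher and 12.6% lower. The counts are not a result about a list. In OGD against Control, 1 of 7 tested genes in the list of STATs and Jak3 was higher and 2 were lower, with a median log2 fold change of -0.13. Jak3 (chromosome 8), the kinase of receptors with the common gamma chain, averaged 20.2 ± 5.85 CPM in Acacetin, 20.4 ± 4.18 CPM in OGD and 45.8 ± 6.78 CPM in Control (SD, n = 4). Its log2 fold change in OGD against Control was -1.16 ± 0.20 (adjusted p = 0.000933). Stat3, the main mediator of IL-6, averaged 42.5 ± 9.96 CPM in OGD and 33.7 ± 1.28 CPM in Control and was not called (0.34 ± 0.16, adjusted p = 0.144). Stat6 was called higher (0.38 ± 0.11, adjusted p = 0.0161) and Stat5b lower (-0.43 ± 0.15, adjusted p = 0.0412), in 14 and 8 of 19 alternatives.

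Of 6 tested IL-6 family cytokine and receptor genes, none was called by edgeR in OGD against Control, and 1, Il11ra1, had an unadjusted p under 0.05. Their median log2 fold change was 0.30. Osm, the gene of oncostatin M, averaged 59.1 CPM in OGD and 50.2 CPM in Control, and Lif, the gene of leukaemia inhibitory factor, averaged 3.88 CPM in OGD and 3.01 CPM in Control. Lifr and Osmr encode the partner chains of gp130 for these cytokines. Lifr was below the filter, and Osmr was not among the genes of the count table. Of 8 other SOCS genes and components of the SOCS-box ubiquitin ligase, only Rnf7, a RING subunit, was called (0.69 ± 0.17, adjusted p = 0.00777), and it was not called without OGD 2 and 3. The median of this list was 0.31.

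Among 13 phosphatases, PIAS proteins and other inhibitors of JAK-STAT signalling, Usp18 alone was called in OGD against Control, with a list median of -0.22. Usp18 (chromosome 6), a brake on the type I interferon receptor and an interferon-induced gene, averaged 169 ± 29.5 CPM in OGD and 73.1 ± 17.7 CPM in Control, a log2 fold change of 1.21 ± 0.19 (adjusted p = 0.000491). The Acacetin libraries had 71.4 to 103 CPM, all below the OGD libraries at 142 to 199 CPM. The change in Acacetin against OGD was -0.98 ± 0.19 with an adjusted p of 0.182 by edgeR, 0.0372 with no filter on low counts and 0.00149 by DESeq2, and 0.0537 to 0.999 in the other 18 alternatives. Usp18 and Socs1 both averaged more in OGD than in either other group. This order was not particular to them, since Stat3, Stat6, Il4ra, Irf1, Cebpd, Zc3h12a and Arid5a, named below or above, also had it. Cebpd, for example, averaged 131 CPM in OGD, 92.5 CPM in Acacetin and 60.2 CPM in Control.

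Of 19 other receptor genes whose products use these kinases, 2 were higher and 3 lower in OGD against Control, with a median of 0.11. Csf3r, for granulocyte colony-stimulating factor, averaged 4.38 CPM in OGD and 9.30 CPM in Control (-1.08 ± 0.24, adjusted p = 0.00407). Il10ra, for interleukin-10, averaged 5.93 CPM in OGD and 12.8 CPM in Control (-1.11 ± 0.26, adjusted p = 0.0054). Ifnar2 had -0.47 ± 0.13 (adjusted p = 0.0132), and Il4ra, for interleukin-4, had 0.61 ± 0.20 (adjusted p = 0.0328). Ifnar2 was called in 16 of 19 alternatives, not with total library size or on either FPKM scale. Il4ra was called in 11 of 19, not on either FPKM scale, with the length trend removed, or without Control 2, Control 4, OGD 1, OGD 2, or OGD 2 and 3 together. Without OGD 2 and 3 the list had 2 called genes, and neither Csf3r nor Il10ra nor Il4ra was called. That fit called fewer genes of all those tested, and the list count was not compared with its share. Csf2rb and Csf2rb2 are near-identical copies whose reads can be split uncertainly, and neither was called.

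Of 21 genes known as STAT3 or STAT5 targets, 3 were higher and 6 lower in OGD against Control, with a median of -0.13. Cebpd, a transcription factor gene of the acute-phase response, averaged 131 ± 20.7 CPM in OGD and 60.2 ± 16.3 CPM in Control (1.12 ± 0.22, adjusted p = 0.0019). Irf1, an interferon regulatory factor gene, averaged 17.0 ± 0.935 CPM in OGD and 10.1 ± 0.918 CPM in Control (0.75 ± 0.14, adjusted p = 0.00136). Pim1, a kinase gene that STAT5 induces, averaged 27.2 ± 6.32 CPM in OGD and 55.4 ± 11.4 CPM in Control (-1.03 ± 0.19, adjusted p = 0.0013). Nfil3, a repressor of the circadian and cytokine programmes, averaged 34.2 ± 4.72 CPM in OGD and 56.2 ± 6.95 CPM in Control (-0.71 ± 0.14, adjusted p = 0.00199). Over all tested genes 16.2% were higher and 12.6% lower in the fit with all libraries. Without OGD 2 and 3, 5 genes of the list were called. That fit called fewer genes of all those tested, and the list count was not compared with its share. Irf1 was not called on log2(FPKM + 1) (0.44, adjusted p = 0.0951) or log2(FPKM + 0.1) (0.58, adjusted p = 0.0875).

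**Figure D5:**
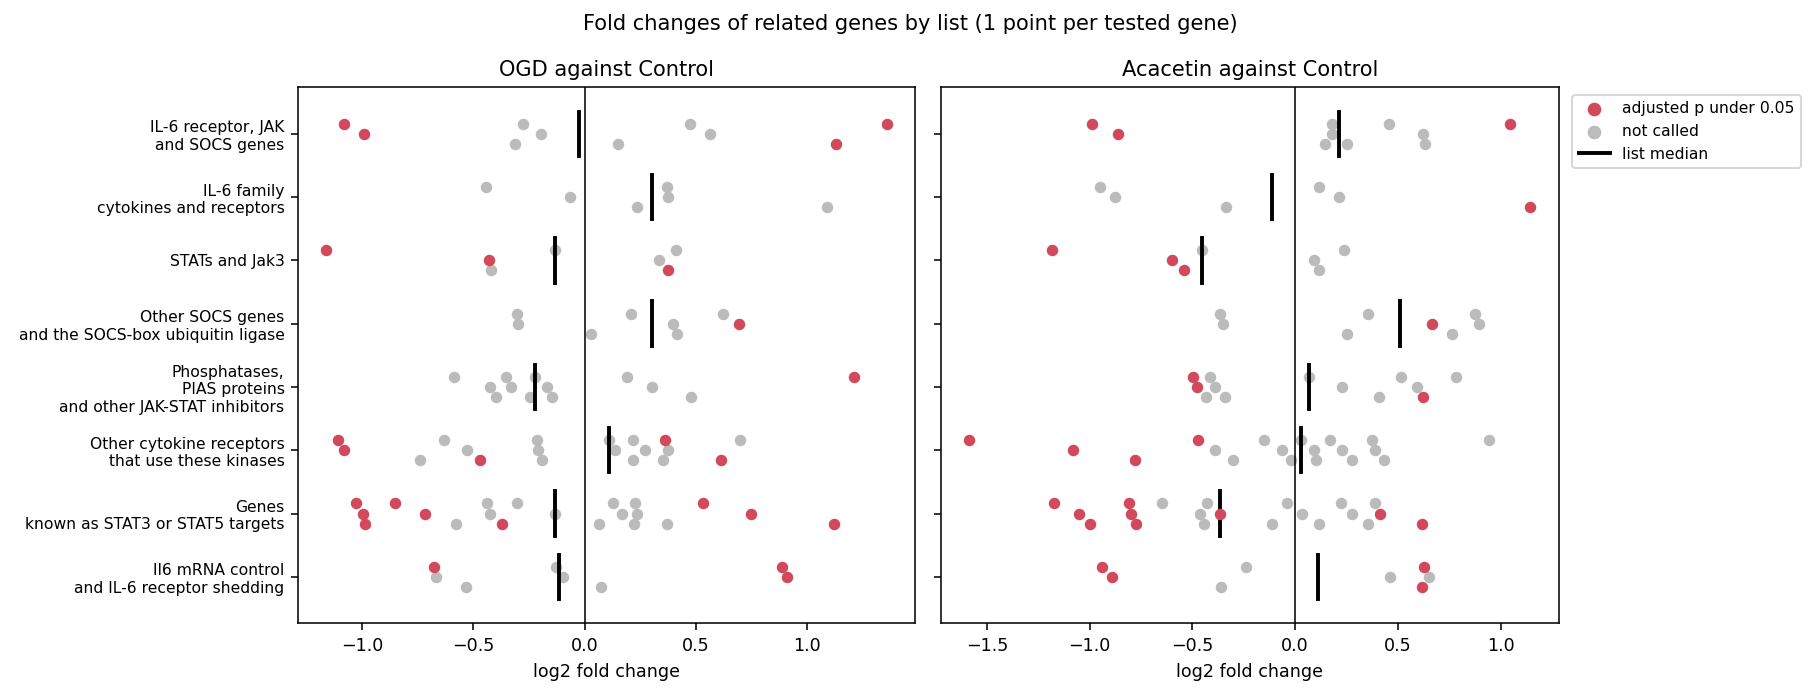
Log2 fold change (horizontal axis) of each tested gene, as 1 point, in the set and in 7 lists (rows), for OGD against Control on the left and Acacetin against Control on the right, with red points for an adjusted p under 0.05 and a black line for the list median. The called genes of the STAT target list lie on both sides of 0, with 3 higher and 6 lower in OGD against Control.

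Of 8 genes that control Il6 mRNA or shed the IL-6 receptor, 2 were higher and 1 lower in OGD against Control, with a median of -0.11. Zc3h12a, the gene of Regnase-1, which degrades Il6 mRNA, averaged 70.6 ± 5.39 CPM in OGD and 38.3 ± 7.01 CPM in Control (0.88 ± 0.16, adjusted p = 0.00117). Arid5a, whose product protects Il6 mRNA from Regnase-1, averaged 73.1 ± 4.79 CPM in OGD and 38.9 ± 9.27 CPM in Control (0.91 ± 0.18, adjusted p = 0.00238), and was not called with the length trend removed (adjusted p = 0.0743). Zfp36, the gene of tristetraprolin, which also destabilises cytokine mRNAs, averaged 63.8 ± 3.68 CPM in OGD and 102 ± 15.8 CPM in Control (-0.68 ± 0.14, adjusted p = 0.00306). The sheddase genes Adam10 (0.07 ± 0.46) and Adam17 (-0.13 ± 0.36) were not called.

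In Acacetin against Control the same lists had 1 gene called higher and 0 lower among the IL-6 family, 0 and 3 among STATs and Jak3, 1 and 0 among the SOCS-box genes, and 1 and 2 among the inhibitors. The other receptors had 0 higher and 4 lower, the STAT targets 2 and 7, and the Il6 mRNA and shedding genes 2 and 2. Over all tested genes 14% were higher and 12.9% lower. Csf3r had the lowest adjusted p of the receptor list, with 3.11 CPM in Acacetin and 9.30 CPM in Control (-1.59 ± 0.24, adjusted p = 0.000622). Il11ra1, called higher at 0.474 CPM in Acacetin and 0.205 CPM in Control (adjusted p = 0.0477), was called in 5 of 17 alternatives. Ptpn11, the gene of the phosphatase SHP-2 that binds gp130, had 0.62 ± 0.19 (adjusted p = 0.0293, called in 9 of 19 alternatives), and Sh2b3, an adaptor gene that restrains JAK2, had -0.47 ± 0.14 (adjusted p = 0.0225, called in 11 of 19). In Acacetin against OGD, edgeR called 0 genes of the 7 lists, 4 of them (Il27, Usp18, Irf1 and Cebpd) had an unadjusted p under 0.05, and DESeq2 called 1, Usp18.

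The genes whose pattern over the 12 libraries was most like that of a called gene were found among 9504 genes by the root mean square difference of centred log2 CPM. For Il6ra the closest was Maco1 (0.148), where the median over all genes was 0.655. For Socs1 they were Abhd15 (0.207) and Sertad1 (0.210), with a median of 0.710. For Cish they were Unc13a (0.161) and Mpp2 (0.168), with a median of 0.732, and for Tyk2 the closest was Calcoco1 (0.108), with a median of 0.609. The distances include what the libraries share, such as depth and length slope.

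Genes annotated on the opposite strand overlap 4 genes of the set, and since the strand setting of the counting was not given in the sources used here, their reads may have been counted together. The overlapping genes had 0 to 5 reads per library for Il6ra (Gm42809), 2 to 11 and 0 to 18 for Cish (Gm17040 and Gm17041), 0 to 4 for Jak1 (Raver2) and 5 to 33 for Tyk2 (1700084C06Rik), against at least 104 reads for each of these 4 genes.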

How the data were processed

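The authors deposited raw read counts per gene and FPKM values (fragments corrected for the length of a gene and the size of a library). Bcl2fastq, HISAT2, DESeq2 and the build GRCm39 are named in the submitters' processing notes, while the program that counted reads, its strand option and the gene annotation are not given in the sources used here. Per the labels' protocols, these were stranded mRNA libraries from DNase-treated RNA. All columns matched a library by name, with 0 unmatched.

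Counts were tested in R 4.3.3 with edgeR 4.0.16: filterByExpr by group (minimum count 10, minimum total 15), TMM scaling, 1 quasi-likelihood fit over 12 libraries with 1 mean per group, two-sided tests, and Benjamini-Hochberg adjustment over 13249 genes at 0.05. Alternatives used DESeq2 1.42.0 (size factors or its own test), total library size, other low-count filters (none, or a mean of 1 CPM), a replicate block, an offset that removes a lowess trend (span 0.5) of level on gene length, only the 8 libraries compared, limma 3.58.1 on log2(FPKM + 1) and log2(FPKM + 0.1), and leaving out each library. The list counts under the length trend removed, without OGD 2 and 3 and without Acacetin 1 and 3 were chosen after seeing the data.

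The genes and lists were chosen with earlier results of these data known. Named genes were the 10 members and Stat3. From each list, up to 4 genes called in OGD against Control and 2 called in Acacetin against Control were taken by smallest p. Osm, Lif, Lifr, Adam10, Adam17, Il27, Csf2rb and Csf2rb2 were added after their values were seen. Osmr, which had no values, was added with them. For likeness, the 2 closest genes averaging 2 CPM or more and not carrying a model or clone name were taken, and 2 of these 8 genes are not reported here. Overlapping genes were looked up in a GENCODE annotation of GRCm38, by name. Gene lengths were relative values derived from the ratio of count to FPKM.

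On counts simulated for OGD against Control (13118 genes), the test recovered 51 of 100 genes changed 2-fold and 92 of 100 changed 4-fold, with 5 unchanged genes called. Only these genes were changed, whereas 28.8% of tested genes were called in the data, so the adjustment of p acted differently. The simulated spread followed the trend over all genes, and the length slopes of the libraries were not simulated. The numbers recovered apply to the simulated counts only. Reads carry no molecular identifiers, so depth covers counting error only.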

Additional observations from a re-analysis of the deposited data

Results flagged for a closer look

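Of 114 groups of 4 libraries checked over 38 genes, 2 held a library far from the other 3; chance gives about 1 in 20 such groups. Il6 stood at 2.55 CPM in Control 4 and at 1.92 to 1.99 CPM in the other Control libraries. Usp18 stood at 99.7 CPM in Control 3 and at 63.8 to 65.0 CPM in the other Control libraries, and it was called in OGD against Control also without Control 3.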

How the results depend on the processing

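Limits: Il6 (from 21 reads) and Jak2 (from 4 reads) had the fewest reads, a group has 4 libraries, and both libraries with much 18S RNA belong to OGD. The SE in OGD against Control was 0.33 for Il6, below that of Jak2 (0.61), Jak1 (0.46) and Il6st (0.40), so it did not follow reads alone. Where a call or sign changed below, the cause was not tested. A fit that leaves libraries out also has fewer libraries, and the part of this was not tested either. In such a fit a group with few libraries is assumed to vary like the others.

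In OGD against Control, edgeR called 3813 genes, and 2010 without OGD 2 and 3. Leaving out each library gave 2798 to 3501 genes and 4 genes of the set each time. In Acacetin against OGD the 0 genes called became 8 with no filter on low counts, 2 with the replicate block, 4 with the length trend removed, 37 with DESeq2, 1 with only the 8 libraries compared, 4 without Acacetin 1 and 3, and 0 to 9 with each library left out (9 without Acacetin 1). In Acacetin against Control the 3559 genes ran from 2373 to 5818 with each library left out (5818 without Acacetin 1, 2373 without Control 2). Its 3 genes of the set became 5 with the length trend removed, 1 on log2(FPKM + 1), 0 on log2(FPKM + 0.1), and 3 to 5 with each library left out. These set counts were not compared with the share of all tested genes in the same fits. The median log2 fold change of all genes moved to 0.18 in Acacetin against OGD and 0.24 in Acacetin against Control with total library size, and to -0.11, 0.24 and 0.17 on log2(FPKM + 0.1) in OGD against Control, Acacetin against OGD and Acacetin against Control.

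Libraries with the same replicate number do not pair by the labels, and their deviations correlated at 0.0708 to 0.506 between OGD and Control, -0.118 to 0.380 between Acacetin and OGD and -0.291 to 0.402 between Acacetin and Control. Libraries with different numbers correlated at -0.347 to 0.235, -0.703 to 0.692 and -0.580 to 0.563 in the same order. With the replicate block, 4572 genes were called in OGD against Control, 2 in Acacetin against OGD and 4279 in Acacetin against Control, with 5, 0 and 5 genes of the set. Socs3 was added in OGD against Control, and Socs1 and Socs3 in Acacetin against Control.

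Signs reversed only for genes of the set that were not called in that comparison. In OGD against Control the reversed log2 fold changes were, for Il6, -0.0039 on log2(FPKM + 1), -0.014 on log2(FPKM + 0.1) and -0.074 without OGD 2 and 3. Without OGD 2 and 3 they were also 0.047 for Il6st, 0.18 for Jak1 and 0.090 for Jak2. With each library left out they ran from -0.039 to 0.24 for Il6, -0.65 to 0.042 for Jak1 and -0.59 to 0.083 for Jak2.

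In Acacetin against OGD, Il6 had 0.054 with DESeq2 size factors, 0.30 with total library size, 0.069 with no filter, 0.14 with the length trend removed, 0.060 with DESeq2, 0.081 with only the 8 libraries, 0.13 and 0.17 on log2(FPKM + 1) and log2(FPKM + 0.1), 0.30 without OGD 2 and 3 and 0.032 without Acacetin 1 and 3. Socs3 had 0.018, 0.13, 0.013, 0.040, 0.018, 0.034, 0.25 and 0.26 under the first 8 of these settings. Il6ra had 0.16 with total library size, 0.10 on log2(FPKM + 1), 0.16 on log2(FPKM + 0.1) and 0.031 without Acacetin 1 and 3. Socs2 had -0.13 with the length trend removed. Without OGD 2 and 3, Socs2 had -0.025, Cish -0.17 and Tyk2 -0.047, and Cish had -0.16 without Acacetin 1 and 3. With each library left out the ranges were -0.26 to 0.24 for Il6, -0.24 to 0.088 for Il6ra, -0.14 to 0.27 for Socs2, -0.18 to 0.11 for Socs3, -0.19 to 0.26 for Cish, -0.038 to 0.90 for Jak1 and -0.018 to 0.81 for Jak2.

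In Acacetin against Control, Il6st had -0.090 with the length trend removed. With each library left out the ranges were -0.12 to 0.38 for Il6, -0.15 to 0.42 for Il6st, -0.23 to 0.59 for Jak1 and -0.33 to 0.68 for Jak2.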
